A study of Mus musculus with 6 samples.

Results

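The models described here were 7 intergenic RNA models at 5 mouse loci, on chromosomes 2, 14, 4, 7 and 13, out of 7959 models assembled from RNA of MEL cells. Of these 7, 6 were taken because they begin at 1 of 5 named positions, and 1 because it shares exonic bases with such a model. The positions were chosen from the data: the models were abundant in the input libraries and had fewer reads in the masked capture. The difference between masked capture and input is therefore given as a description with no test. MEL is a mouse erythroleukemia line, given in the labels as of the C57BL/6 strain. All libraries came from formaldehyde-crosslinked chromatin of this 1 line, and RNA was sequenced with a stranded total RNA kit. TH59-DB is a probe directed at telomeric DNA, used here to pull down a chromatin region with the RNA attached to it, and masked TH59-DB is its negative control. The 3 groups were input chromatin, chromatin captured with masked TH59-DB and chromatin captured with TH59-DB, with 2 libraries each. Only the second library of each group carries a number in the labels, so the other was taken as number 1. Nothing says whether the libraries came from separate cultures, so p-values measure only the spread between these libraries.

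The models had been set apart as repeat-like loci lost on capture, and the data bear out only part of that name. All 7 were lower in both masked libraries than in both input libraries, as the choice required. At the chromosome 4, 7 and 13 models TH59-DB 1 lay between the 2 input libraries and TH59-DB 2 below both. The single-exon chromosome 2 model was instead higher in both TH59-DB libraries than in either input library. The other 3 models had TH59-DB values between those of the 2 input libraries, and no model had both TH59-DB libraries below both input libraries.

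Satellites and other multi-copy repeats are collapsed in a genome assembly, so reads from many copies can pile up on the few copies that were assembled. An intergenic model with a high count in such a place need not be a transcript of that place alone. Whether the 7 models hold repeats was not examined, because no genome sequence was used here. No RefSeq promoter window touched a model, and no sequence is printed for them.

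Library totals recovered from the deposited values ran from 1803723 to 3122558 reads, of which 35.7% to 69.2% lay in the models. Levels below are reads per 1000000 of these totals (CPM, counts per 1000000), and 1 read was worth 0.320 to 0.554 CPM. In masked TH59-DB 1 a single model took 50.8% of the total, which lowers the CPM of every other model in that library. In TH59-DB 1 the lowest count of any model was 5, while every other library had at least 1404 models at 0. Of 15 erythroid marker genes fixed as a list, 7 had a model, with a summed level of 337 to 1062 CPM per library. Of 7 genes of other blood cells 2 had a model, at 4.06 to 49.4 CPM summed, and of 4 genes of other tissues 0 had one.

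The chromosome 2 locus held 3 of the models, on build mm10. The single-exon model covered chr2:98662237-98662982, 746 bases. The long model had 2 exons, chr2:98662237-98662712 and chr2:98666300-98667258, 1435 bases together. The downstream model also had 2 exons, chr2:98666255-98666655 and chr2:98667141-98667256, 517 bases together. The long model shared 476 bases with the single-exon model, 63.8% of the latter, and 472 bases with the downstream model, 91.3% of the latter. Reads of these 3 models can thus be the same reads, and they are not 3 independent observations. In both sets of files the long model was listed on the + strand and the downstream model on the - strand. Whether the counting kept the strands apart is not known, so shared reads between these models are possible but not certain. The nearest RefSeq gene, the lncRNA gene Gm33780, lay 35.3 kb beyond the long model. The locus was 83.3 Mb before the last RefSeq gene or model end on the chromosome, used here as a distal mark.

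The other 4 models had 1 exon each and were short. They covered chr14:19417214-19417383 (170 bases), chr4:149817729-149817834 (106 bases), chr7:99497728-99497822 (95 bases) and chr13:103396212-103396297 (86 bases). The nearest RefSeq genes were the pseudogene Gm9637 at 12.1 kb on chromosome 14, the lncRNA gene Gm42354 at 15.2 kb on chromosome 4, the lncRNA gene Gm39056 at 2.64 kb on chromosome 7 and the pseudogene Gm16416 at 0.773 kb on chromosome 13. All 7 models lay in no gene span, as did 1129 of the 7959 models. Single-exon models carry a strand in one set of files and none in the other, so no strand is given for them. The chromosome 4 model lay 6.54 Mb from the distal mark of its chromosome, and the other 3 between 16.9 and 105 Mb from theirs.

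At the chromosome 2 locus the TH59-DB libraries were far above the masked libraries. The single-exon model had 13.1 and 127 CPM in the input libraries, 3.04 and 3.52 CPM in the masked libraries and 261 and 214 CPM in the TH59-DB libraries, each pair in the order of library number 1 and 2. It was highest in the 2 TH59-DB libraries, and the 3 groups did not overlap. The long model had 62.0 and 589 CPM in the input, 10.1 and 27.2 CPM in the masked capture and 380 and 350 CPM with TH59-DB. Its TH59-DB values fell between those of the 2 input libraries and above both masked libraries. The downstream model had 46.6 and 537 CPM in the input, 7.10 and 24.3 CPM in the masked capture and 157 and 167 CPM with TH59-DB. It showed the same order as the long model. The 2 TH59-DB libraries differed by no more than 1.22-fold at these models, against 9.51-fold to 11.5-fold between the 2 input libraries.

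The chromosome 14 model had 7.70 and 70.1 CPM in the input, 0 and 4.16 CPM in the masked capture and 21.1 and 23.6 CPM with TH59-DB. Its groups were arranged as at the long chromosome 2 model, with TH59-DB between the input libraries and above both masked libraries. The 0 in masked TH59-DB 1 was 0 of 1970838 reads, which allows up to 1.52 CPM (3 reads, counting error only), and the 4.16 CPM in masked TH59-DB 2 was 13 reads.

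The chromosome 4 model was the most abundant of the 7 by far. It had 8574 and 1355 CPM in the input, 210 and 374 CPM in the masked capture and 2760 and 515 CPM with TH59-DB. It ranked 9 and 20 among all 7959 models by reads in the input libraries, 62 and 60 in the masked libraries and 16 and 61 in the TH59-DB libraries. Input 1 stood apart at 0.857% of the whole library, and TH59-DB 2 was 1.38-fold above masked TH59-DB 2, while TH59-DB 1 was 13.1-fold above masked TH59-DB 1. The chromosome 7 model had 126 and 8.41 CPM in the input, 2.03 and 1.60 CPM in the masked capture and 52.1 and 5.79 CPM with TH59-DB. Here too the first library was the higher one in the input and with TH59-DB, by 15.0-fold and 9.0-fold. The chromosome 13 model had 35.5 and 5.60 CPM in the input, 0 and 1.28 CPM in the masked capture and 10.5 and 1.16 CPM with TH59-DB. Its TH59-DB and masked values overlapped, and its TH59-DB 2 value rested on 3 reads and its masked TH59-DB 2 value on 4.

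**Figure D1:**
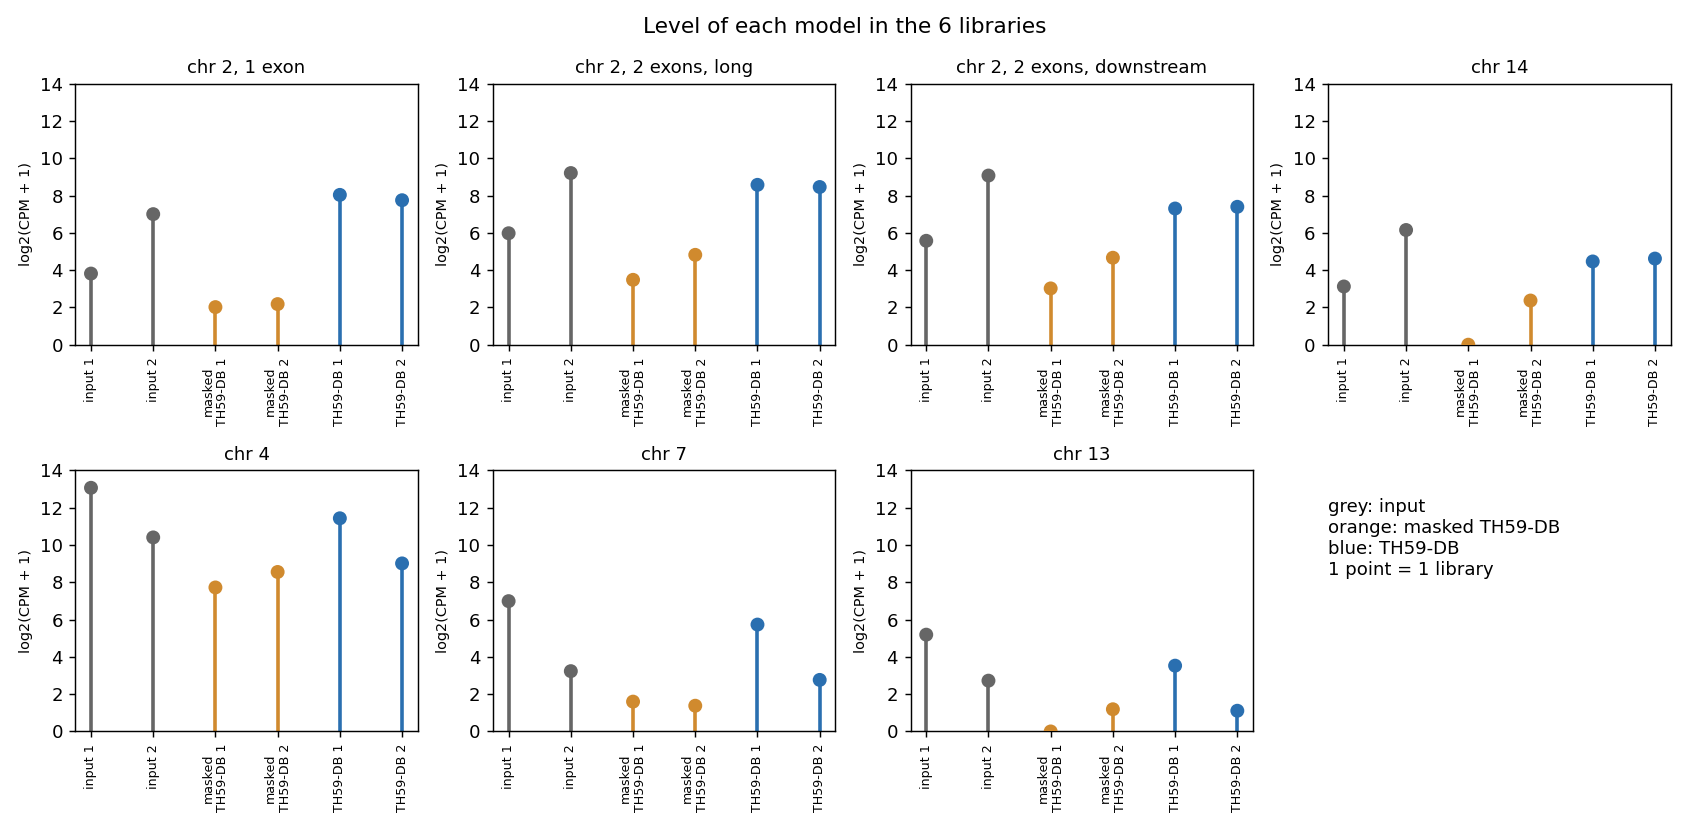
Level of each of the 7 models in the 6 libraries, as log2 of CPM plus 1, with 1 point per library. Every model has its masked TH59-DB points below its input points, and the chromosome 13 model is the one whose TH59-DB and masked points overlap.

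Read per length, the order of the models differed from that by CPM. In CPM per kilobase of model (RPKM), the chromosome 4 model stood at 80886 and 12781 in the input, 1982 and 3532 in the masked capture and 26042 and 4857 with TH59-DB. The other 6 models ran from 17.5 to 1326 RPKM in input 1 and from 65.2 to 1038 RPKM in input 2. The chromosome 7 model was second in input 1, at 1326 RPKM, and the downstream chromosome 2 model second in input 2, at 1038 RPKM. Summed over the 7 models, the level was 5778 ± 4365 CPM in the input, 334 ± 144 CPM in the masked capture and 2459 ± 1672 CPM with TH59-DB (SD, n = 2 each). These sums count the overlapping chromosome 2 models separately, so shared reads can enter more than once. With 1 model per locus, the long one on chromosome 2, the sums were 8805 and 2028 CPM in input 1 and 2. They were 222 and 409 CPM in the masked capture and 3224 and 896 CPM with TH59-DB, in the same order. The chromosome 4 model held 40.3% to 96.7% of the summed reads of a library over the 7 models, a share that repeated reads would lower. With n = 2 against 2, no exact permutation test can reach 0.05, so the sums were not tested.

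In a fit over all models with edgeR's quasi-likelihood test and Benjamini-Hochberg adjustment, all 7 models passed the filter on low counts, among 5498 tested. Against masked TH59-DB, 2.82% of all tested models were higher with TH59-DB at an adjusted p under 0.05, and 3 of the 7 models were. The masked libraries were used to choose the 7 models and a low masked value raises this fold change, so these p-values are not independent evidence. The 3 called models were the overlapping ones at the chromosome 2 locus. The single-exon model was 6.44 higher on the log2 scale (SE 1.03, edgeR adjusted p = 0.00551), and its mean was 72.3-fold that of the masked capture. The long model was higher by 4.72 on the log2 scale (SE 1.00, edgeR adjusted p = 0.0215) and the downstream model by 3.88 (SE 0.96, edgeR adjusted p = 0.0473). The call of the long model was lost without masked TH59-DB 1 (edgeR adjusted p = 0.146) and without TH59-DB 2 (0.0750). That of the downstream model was lost without masked TH59-DB 1 (edgeR adjusted p = 0.245), TH59-DB 2 (0.246), input 1 (0.0596) or TH59-DB 1 (0.0549).

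The other 4 models did not pass this test. The fitted log2 fold changes of TH59-DB over masked capture were 3.92 (SE 1.12, edgeR adjusted p = 0.10) on chromosome 14 and 3.87 (SE 1.30, adjusted p = 0.181) on chromosome 7. They were 3.09 (SE 1.48, edgeR adjusted p = 0.458) on chromosome 13 and 2.49 (SE 1.20, adjusted p = 0.462) on chromosome 4. The chromosome 14 model passed without masked TH59-DB 2 (edgeR adjusted p = 0.00398), a fit in which the median log2 fold change of all tested models was 5.26, and the chromosome 7 model without masked TH59-DB 1 (0.0206) or without input 2 (0.0464). Both also passed with DESeq2, at adjusted p = 0.0299 and 0.0491, and without the filter on low counts. The chromosome 7 model passed with library totals without TMM factors as well (edgeR adjusted p = 0.0130). The chromosome 4 and chromosome 13 models passed under none of the alternatives run. Both TH59-DB libraries lay above both masked libraries in 6 of the 7 models, against 17.2% of all tested models. The median log2 fold change was 3.88 over the 7 models and 0.45 over all tested models. The choice of models with few masked reads raises both that count and this median, so neither is independent evidence.

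Against input, 4.4% of all tested models were higher and 0.0546% lower with TH59-DB, and 0 of the 7 models were called either way by edgeR. The largest log2 difference upwards was 2.34 (SE 0.83, edgeR adjusted p = 0.160) for the single-exon chromosome 2 model. The long model stood at 0.77 (SE 0.86), the downstream model at -0.19 (SE 0.85) and the chromosome 14 model at -0.16 (SE 0.95), each within 1 SE of 0. The chromosome 4, 7 and 13 models stood at -1.82 (SE 1.17), -1.53 (SE 1.09) and -2.07 (SE 1.26), with adjusted p-values of 0.556 to 0.642 in the same edgeR fit. Without input 1 they stood at 0.07, 1.49 and -0.22, so the direction on chromosomes 4 and 7 rested on that library. Without input 2 the downstream chromosome 2 and chromosome 14 models turned to 1.77 and 1.51, and without input 1 the long model turned to -0.45. Without masked TH59-DB 1 the chromosome 13 model was called lower, at -2.57 (edgeR adjusted p = 0.00203). Both TH59-DB libraries lay below both input libraries in 0 of the 7 models and in 23.1% of all tested models. The share was 51.9% of other models with at least 10 CPM in the input. Among other intergenic models it was 21.7% with at least 10 CPM and 34.8% with at least 100 CPM. Each of the 7 had 1 input library far below the other, and both TH59-DB values had to fall below that library to be counted. The median was -0.19 over the 7 models and 0.35 over all tested models.

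Masked capture over input, which chose the models, gave fitted log2 fold changes of -3.95 to -5.40, with a median of -4.10 against -0.07 over all tested models. With 1 library left out they kept their sign but ran from -9.26 to -2.01. Nearest 0 was -2.01 for the downstream chromosome 2 model without input 2. The long and single-exon chromosome 2 models came as near as -2.13 and -2.25. The chromosome 7 and 4 models stood at -2.21 and -2.29 without input 1. The value of -9.26 was that of the chromosome 14 model without masked TH59-DB 2, which leaves a masked count of 0 and so depends on the prior count of the fit. Both masked libraries lay below both input libraries in 7 of the 7 models and in 14.6% of all tested models. By edgeR 0% of all tested models were called lower in this comparison, while 145 were lower at an unadjusted p under 0.05 and DESeq2 called 17. The number called lower by edgeR was 921 without masked TH59-DB 2, where the median of all tested models was -1.47, and 43 without masked TH59-DB 1. It was 11 without input 2, 6 without TH59-DB 2, 3 without input 1 and 0 without TH59-DB 1. In mean CPM the masked level was 17.0-fold below input on chromosome 4 and 37.0-fold below on chromosome 7, with the other 5 models in between.

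**Figure D2:**
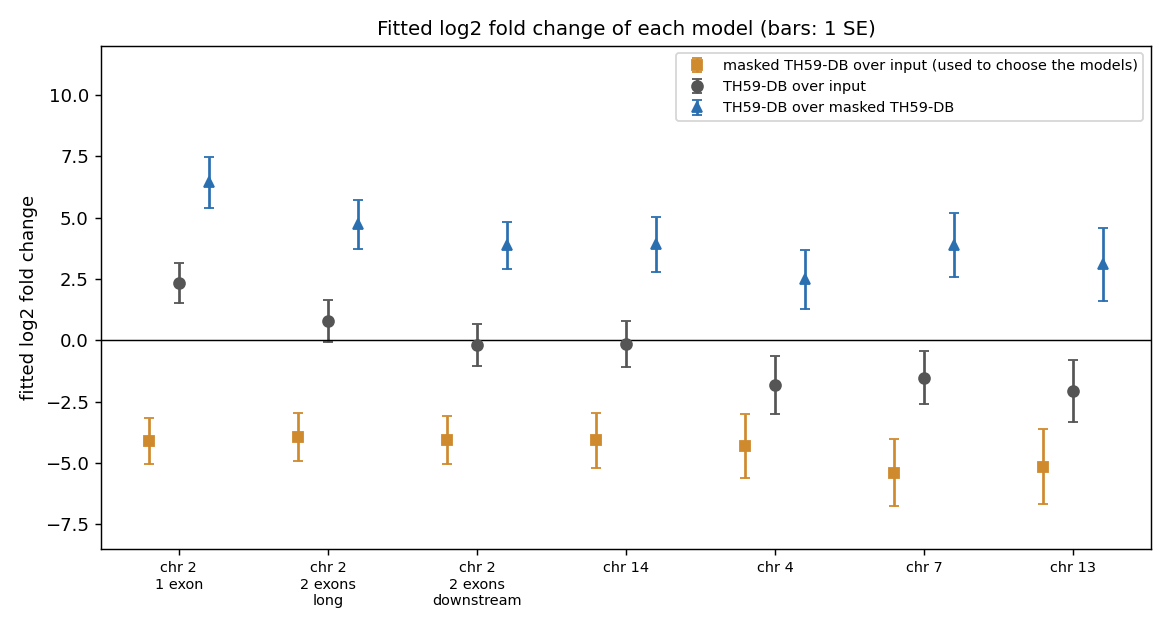
Fitted log2 fold change of each of the 7 models in the 3 comparisons, from the edgeR fit over all models, with bars of 1 SE. The TH59-DB over input values run from 2.34 at the single-exon chromosome 2 model to -2.07 at the chromosome 13 model, and the TH59-DB over masked values from 2.49 to 6.44.

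The reads at the chromosome 2 locus were spread differently in the TH59-DB libraries than in the input. Per base, the single-exon model stood at 0.194 (95% exact interval 0.133 to 0.279) and 0.164 (0.146 to 0.184) of the downstream model in the 2 input libraries. With TH59-DB it stood at 1.15 (0.993 to 1.34) and 0.887 (0.781 to 1.01). Both TH59-DB ratios lay above both input ratios by more than counting error, and the difference between the groups was not tested. The masked ratios of 0.297 and 0.10 rested on 6 and 11 reads of the single-exon model and had intervals of 0.0935 to 0.823 and 0.0481 to 0.190.

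A further model, chr2:98664987-98665224, lay inside the intron of the long model, shared no exonic base with it and so was not one of the 7. It had 1.34 and 14.7 CPM in the input, 2.03 and 0.961 CPM in the masked capture and 164 and 198 CPM with TH59-DB. It was the highest of the locus per base with TH59-DB, at 2.26 (1.92 to 2.67) and 2.57 (2.26 to 2.93) of the downstream model, and the lowest in the input, at 0.062 (0.0168 to 0.164) and 0.0596 (0.0427 to 0.0809). This model was higher with TH59-DB than in the masked capture by 7.25 on the log2 scale (SE 1.14, edgeR adjusted p = 0.00508), and it passed in every alternative run. It was also higher than in the input by 5.13 (SE 0.99, edgeR adjusted p = 0.00537). Its locus was chosen by its input and masked reads, so neither p-value is independent evidence. In TH59-DB 1, moreover, no model of the whole set had fewer than 5 reads. The call against input was lost without input 1 (edgeR adjusted p = 0.377) and without TH59-DB 2 (0.0578).

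**Figure D3:**
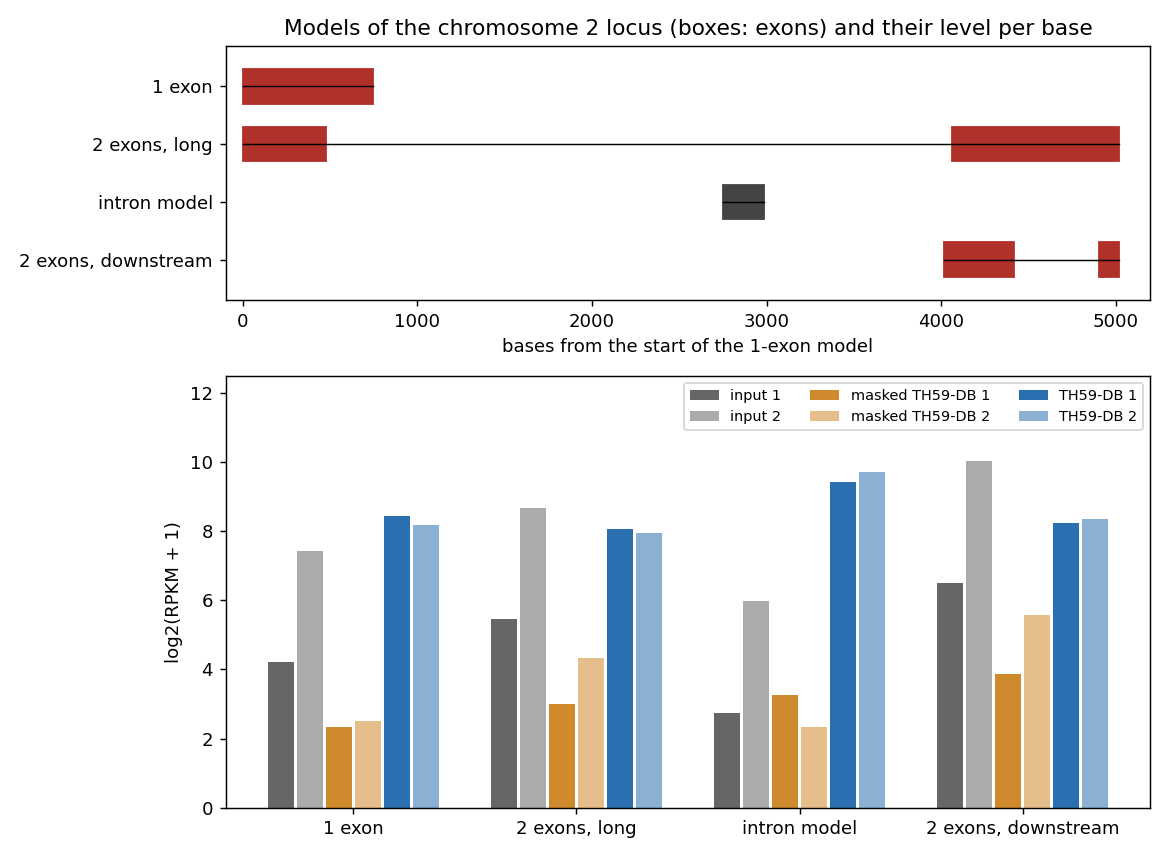
The chromosome 2 locus, with the exons of the 3 overlapping models and the model in the intron drawn by distance in bases from the first start, and below it the level of each in the 6 libraries as log2 of RPKM plus 1, with 1 bar per library. In the TH59-DB libraries the intron model is the highest per length, at 687 and 831 RPKM, and in the input libraries it is the lowest, at 5.63 and 61.8 RPKM.

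The 2 input libraries disagreed at all 7 models, in opposite directions. The single-exon, long and downstream chromosome 2 models and the chromosome 14 model were 9.73-fold, 9.51-fold, 11.5-fold and 9.09-fold higher in input 2. The chromosome 4, 7 and 13 models were 6.33-fold, 15.0-fold and 6.34-fold higher in input 1. Among 2269 models with a mean of at least 10 CPM in the input, 2.2% were over 5-fold higher in input 1 and 0.397% over 5-fold higher in input 2, on CPM plus 1. The abundance by which these models were chosen thus came mainly from 1 input library in each case, a different one for the chromosome 2 and 14 models than for the other 3. Such gaps, in either direction, were present in 7 of 23 other intergenic models with at least 100 CPM in the input (30.4%) and in 21 of 106 with at least 10 CPM (19.8%). The 7 models were chosen on input values and 3 of them overlap, so these shares were not tested against each other. Apart from the 7, only 5 models with at least 10 CPM were over 5-fold higher in input 2. One of them, chrY:90813197-90821200, had 9 and 93 reads in the input, 3 and 4 in the masked capture and 5421 and 5079 with TH59-DB. The others showed no such rise. The model chr12:20701029-20701442 had 107 and 378 CPM in the masked capture and 108 and 212 CPM with TH59-DB. For Rbm15 these were 11.2 and 26.6 against 14.4 and 23.6 CPM. For 4632415L05Rik they were 12.7 and 13.5 against 17.2 and 16.6 CPM, and for Cpox 8.12 and 8.01 against 6.65 and 0.772 CPM.

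**Figure D4:**
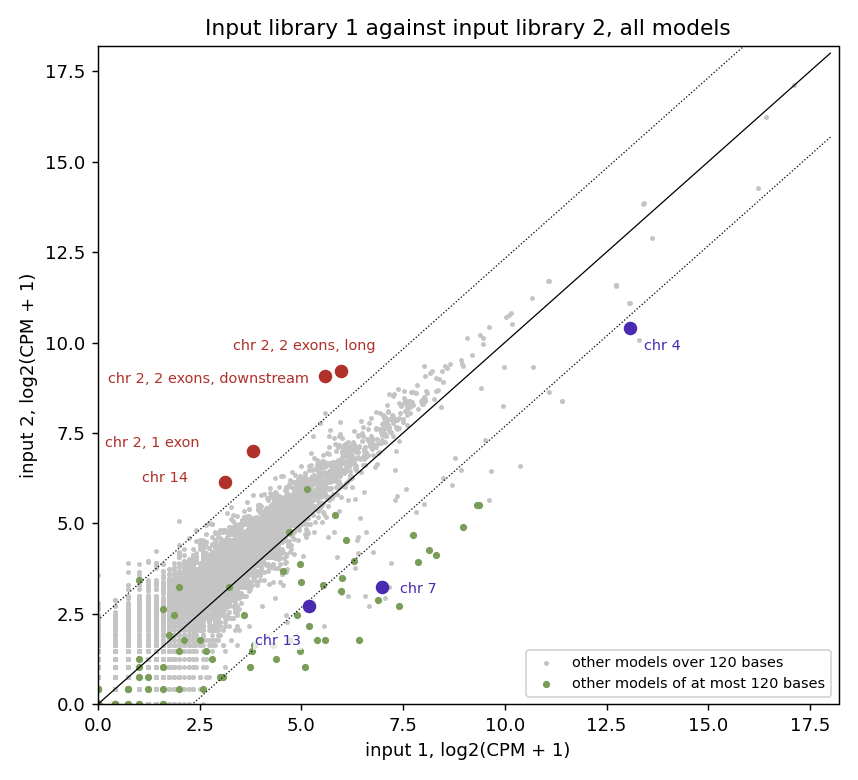
Level of every model in input 2 against input 1, as log2 of CPM plus 1, with the 7 models marked, models of at most 120 bases in green and dotted lines at a 5-fold difference. The chromosome 2 and 14 models lie above the upper line and the chromosome 4, 7 and 13 models below the lower one.

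Across the 6 libraries the 7 models moved as 2 sets. As a description over 6 libraries, with log2 of CPM plus 1, the chromosome 2 and 14 models correlated at Pearson r of 0.852 to 0.992 among themselves. The overlap of the chromosome 2 models can enter 2 of these values. The chromosome 4, 7 and 13 models correlated at 0.944 to 0.996 among themselves, and r between the sets was 0.298 to 0.460. By a rule on the mean profile of the 6 models with a named start, the most alike of 2262 other models lay in the spans of Tbc1d24 (r = 0.929), Slc25a39 (0.914), Car2 (0.905), Etf1 (0.902) and Tnrc6b (0.897). That mean blends both sets. For the chromosome 2 and 14 models alone the most alike model lay in the span of Qser1 (r = 0.892). For the chromosome 4, 7 and 13 models alone it was LOC115490001, annotated as ribosomal RNA (r = 0.986), followed by the intergenic models chr7:19301249-19301333 (0.986) and chr6:100471528-100471601 (0.978) and by n-R5s151 (0.971). The last pair of profiles was taken after the values were seen.

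Ribosomal 5S RNA, the small RNA of the large ribosomal subunit, is encoded in the nucleus by genes and many dispersed copies, among them those named n-R5s. Because such a gene appeared among the most alike, all 5 models in RefSeq spans of nuclear ribosomal RNA were read, a choice made after the values were seen. Models of ribosomal RNA outside such spans were not sought. They were LOC115490001, n-R5s115, n-R5s151, n-R5s194 and n-R5s33, each in a gene of 119 bases. Their summed level was 276 and 34.7 CPM in the input, 7.10 and 13.1 CPM in the masked capture and 168 and 13.5 CPM with TH59-DB. Each of the 5 was highest in input 1 and next highest in TH59-DB 1, as the chromosome 7 and 13 models were. The step to the next library was small for n-R5s115, with 11.6 CPM in TH59-DB 1 and 9.46 CPM in input 2. For the chromosome 13 model these were 10.5 and 5.60 CPM. All 5 correlated with the mean of the chromosome 4, 7 and 13 models at r of 0.881 to 0.986, and with the mean of the chromosome 2 and 14 models at 0.231 to 0.497 (6 libraries). These models share their short length, and length moved with the gap between the input libraries. Of 33 other models of at most 120 bases with at least 10 CPM in the input, 24 (72.7%) were over 5-fold higher in input 1 and 0 in input 2. Of 2229 longer ones, 23 (1.03%) were over 5-fold higher in input 1 and 5 (0.224%) in input 2. The longer class held n-R5s33 (125 bases) and n-R5s194 (126 bases). With the cut at 200 bases, 37 of 276 shorter models (13.4%) were over 5-fold higher in input 1 and 0 in input 2. Of 1986 longer ones, 10 (0.504%) were so in input 1 and 5 (0.252%) in input 2. The chromosome 14 model, of 170 bases, was higher in input 2. The part of length in the values of the chromosome 4, 7 and 13 models was not tested.

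**Figure D5:**
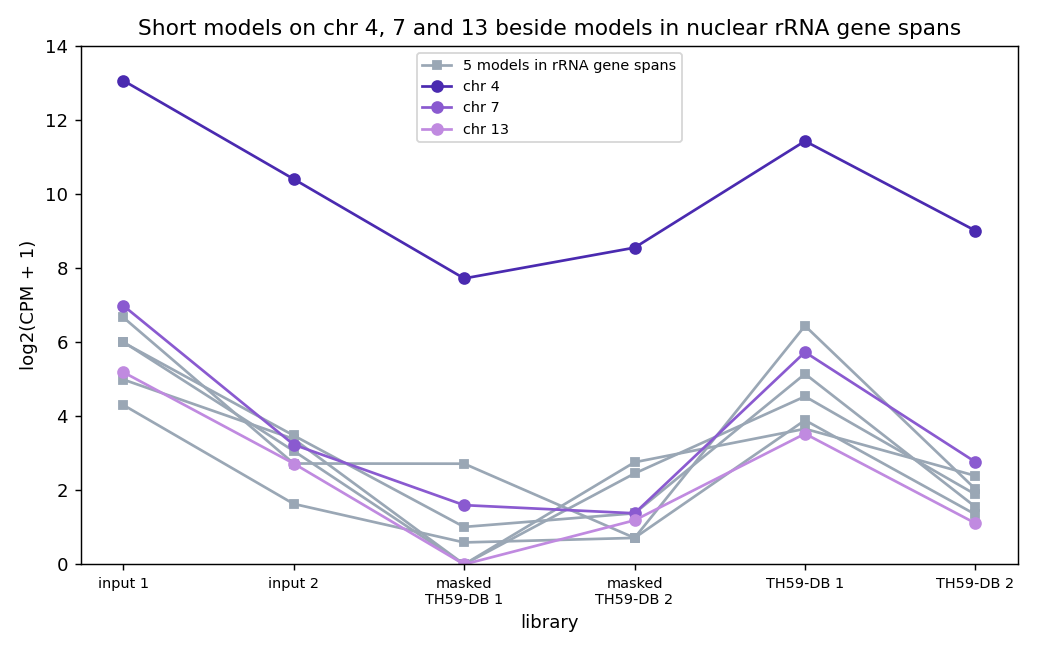
Level of the chromosome 4, 7 and 13 models and of the 5 models annotated as nuclear ribosomal RNA in the 6 libraries, as log2 of CPM plus 1, with 1 line per model. Every line is higher in input 1 than in input 2 and in TH59-DB 1 than in TH59-DB 2, and the chromosome 4 model lies above all others throughout.

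Within 100 kb of the loci lay 7 further models, including the intron model on chromosome 2. On chromosome 7, the C/D box snoRNA Snord15a had 465 and 253 reads in the input, 133 and 289 in the masked capture and 262 and 167 with TH59-DB. Its host gene Rps3, which encodes a protein of the small ribosomal subunit, had 586 and 884 reads in the input, 283 and 680 in the masked capture and 121 and 146 with TH59-DB. Snord15b, also within the span of Rps3, had 480 and 365 reads in the input, 100 and 371 in the masked capture and 170 and 150 with TH59-DB. The 2 input libraries differed less there than at the chromosome 7 model, which had 376 and 24 reads. On chromosome 4, the models in the spans of Slc25a33 and Tmem201 had 0 to 27 reads in any library, against 414 to 25595 at the chromosome 4 model.

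Lists of genes of related kinds gave few models to set beside these. By RefSeq gene span, 0 of 13 predicted genes known to lie in satellite repeats were matched to a model. The same held for 0 of 4 ribosomal RNA genes fixed as a list. A gene without a span in that annotation cannot be matched, so neither 0 shows that such a locus had no model. Whether the 7 models lie on genes of these lists in another annotation was not examined. Of 7 nuclear-retained RNAs 5 had models, 19 in all, with summed levels of 3371 to 10727 CPM. In that list 0 of 19 models were called by edgeR against masked TH59-DB, and 1 was higher and 0 lower against input. Of 11 mitochondrially encoded RNAs 4 had a model, and 0 of these 4 were called in either comparison. Of the 23 erythroid models 21 were tested and 0 called, with a median log2 fold change of TH59-DB over masked capture of 0.02, against 0.45 over all tested models.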

How the data were processed

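RNA of 2 input, 2 masked TH59-DB and 2 TH59-DB libraries was analysed. The deposited files hold a count of reads per assembled model and an FPKM value made by the authors, per the file headers. cutadapt, HISAT2, Cufflinks and featureCounts on mm10 are named in the submitters' processing notes, without roles or versions. Counts were used throughout, and the deposited FPKM values served to recover library totals. Models were joined across files on all exons (7695) or on chromosome, first start and length (264), and gene spans came from RefSeq GRCm38.p6 (at least 50% of bases inside). All 6 libraries entered 1 edgeR 4.0.16 fit in R 4.3.3 (filterByExpr, TMM, robust quasi-likelihood, group as the only term). The fit was also run on simulated data with a smaller spread than these libraries had (fitted coefficient of variation 0.67). That run does not show how the fit performs at the spread of these data. DESeq2 1.42.0, other library sizes, no filter, merged overlaps, a replicate block and left-out libraries were alternatives. Named were all members, all models within 100 kb, the 5 most alike models and the lists in the text. Members and lists were chosen with earlier results of these data known. The number of libraries and, for low models, the depth limit the precision. Intervals cover counting error only.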

Additional observations from a re-analysis of the deposited data

How the results depend on the processing

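With TH59-DB over masked capture, 155 models were called higher by edgeR. DESeq2 called 236, library totals with TMM factors (chosen after seeing the data) 76, and leaving out 1 library 32 to 1440, with the extremes without TH59-DB 2 and without masked TH59-DB 2. With masked TH59-DB 1 left out it was 306. The 0 called lower (97 at an unadjusted p under 0.05, DESeq2 0) became 5 with no filter, 2 with library totals without TMM, and 0 to 262 (without masked TH59-DB 2) with 1 library left out. Against input, 242 were higher, and 89 (without TH59-DB 2) to 714 (without masked TH59-DB 2) with 1 library left out. It was 576 without masked TH59-DB 1 and 147 without input 1. The 3 called lower became 33 with DESeq2, 30 with no filter, 23 with library totals without TMM, 1 with overlapping models merged, and 0 to 222 (without masked TH59-DB 1) with 1 library left out. With library totals and TMM factors the calls of the long (adjusted p = 0.0611) and downstream (0.125) chromosome 2 models were also lost. Masked capture over input, with 0 called lower, had 26 with no filter and 18 with library totals without TMM. The cause was not tested.

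Over 5498 models, deviations of same-numbered libraries from their group means correlated at 0.108 (input and masked), 0.0769 (input and TH59-DB) and -0.0383 (masked and TH59-DB). Such values cannot show whether same-numbered libraries share a culture or preparation, which the labels do not state. With the replicate as a block, 210 models were higher and 7 lower against masked TH59-DB, 277 higher and 48 lower against input, and 20 lower in masked capture over input. It also called the chromosome 14 (adjusted p = 0.000351) and chromosome 7 (0.00200) models higher than masked TH59-DB and the single-exon chromosome 2 model higher than input (0.00629). The block turned the log2 difference from input to 0.22 for the downstream chromosome 2 model and 0.27 for the chromosome 14 model.

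Left-out libraries also turned the sign against input, over -0.45 to 2.48 for the long and -1.45 to 1.77 for the downstream chromosome 2 model, -1.45 to 1.51 on chromosome 14, -2.90 to 0.0717 on chromosome 4 and -3.01 to 1.49 on chromosome 7. No member's direction against masked TH59-DB turned under any alternative run. Summed levels per 1000000 reads in models were 11521 (input), 676 (masked) and 4877 (TH59-DB), and the masked sum was 488 with the largest model of masked TH59-DB 1 left out of the totals (chosen after seeing the data). With 1 library left out the sums were 2692 to 8865, 232 to 437 and 1277 to 3642.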
